A study of Mus musculus with 78 samples.

Results

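The metalloproteases and their inhibitors were followed through the transcriptome of mouse cerebral arteries after carotid narrowing and under intermittent fasting. The members were the protein-coding genes of the expression table named as ADAM, ADAMTS, ADAMTS-like, MMP or TIMP genes, taken by symbol. These families were chosen with earlier results of these data known, so their share of calls is a description and no test. The table held 83 members among 54532 genes, with levels in FPKM (fragments per kilobase of gene, scaled by a depth factor per library). The 35 that reached at least 1 FPKM in at least 3 libraries are described here. They were 9 of 33 ADAM, 8 of 19 ADAMTS, all 5 ADAMTS-like, 9 of 22 MMP and all 4 TIMP genes, and they held 99% of the summed mean FPKM of the 83. Of the others, 44 never reached 1 FPKM in any library, and Adam24, Adam39, Adam29 and Adam6a were listed at 0 throughout. Just outside the limit were Mmp16, with a mean of 0.568 FPKM and 2 libraries at 1 FPKM, and Adam8, Adamts4 and Mmp3 with 1 library each. Just inside it were Adam19 and Adam22, with 7 libraries each, and Mmp9, with 16.

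All mice were male wild-type C57Bl6 animals kept for 3 months on free access to food (ad libitum, AL) or on intermittent fasting (IF). They then received bilateral carotid artery stenosis (BCAS), which lowers blood flow to the brain chronically, or a sham operation. Cerebral arteries were taken 1, 7, 14, 21 or 30 days after surgery, which made 20 groups and 78 libraries. There were 20 libraries of AL sham mice, 19 of IF sham mice, 19 of AL mice with BCAS and 20 of IF mice with BCAS, with 4 libraries in each group except AL mice with BCAS at day 1 and IF sham mice at day 7, which had 3. The treatment text lists days 1, 14, 21 and 30, and day 7 comes from the group labels alone. The fasting schedule and the hour of collection are not given in the sources used here. Nothing states that libraries came from separate animals, so the p-values measure the spread between libraries, which may be technical.

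ADAM, ADAMTS and MMP proteins are zinc endopeptidases. ADAMs are mostly membrane proteins that release the outer part of other membrane proteins. ADAMTSs are secreted and cut proteoglycans, procollagens and other matrix proteins. MMPs cut collagens, basement membrane and many signalling proteins, and ADAMTS-like proteins carry the ancillary domains of ADAMTSs without the protease. TIMPs block the active site of MMPs, and TIMP-3 also blocks several ADAMs and ADAMTSs. In arteries the balance of these proteins sets the turnover of the wall, and MMPs are known for opening the blood-brain barrier after ischaemia.

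The zinc-binding site divides the members into those that can and cannot be proteases by this motif, so its coding sequence is shown for members that the results turn on. The capitals mark codons 1, 5 and 11, which encode the 3 histidines that hold the zinc, codon 2, which encodes the catalytic glutamate, and codon 8. Each run has 33 bases, or 11 codons, and was read 5′ to 3′ from GENCODE M21 transcripts on GRCm38.
Adamts1: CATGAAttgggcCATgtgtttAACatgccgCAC
Adamts15: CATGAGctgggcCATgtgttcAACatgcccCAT
Adamts8: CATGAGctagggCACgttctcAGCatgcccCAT
Adamts5: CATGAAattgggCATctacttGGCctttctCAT
Adamts10: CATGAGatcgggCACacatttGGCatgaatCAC
Adam15: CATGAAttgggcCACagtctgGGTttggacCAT
Adam33: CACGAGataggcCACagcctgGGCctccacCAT
Mmp14: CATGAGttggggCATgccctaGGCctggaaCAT
Mmp2: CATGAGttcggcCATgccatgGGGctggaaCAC
The pattern was widened to any codon 8 after a stricter one with glycine there missed Adamts1, Adamts8 and Adamts15. With this change the site was found in 24 of the 35 members: in 7 of 9 ADAM, 8 of 8 ADAMTS, 9 of 9 MMP, 0 of 5 ADAMTS-like and 0 of 4 TIMP genes. Adam11 and Adam22, known as ADAMs without protease activity, did not hold it. Codon 8 encoded glycine in 21 of the 24, asparagine in Adamts1 and Adamts15, and serine in Adamts8. Adamts1 and Adamts15 were identical at 28 of the 33 bases, Adamts15 and Adamts8 at 27, and Adamts15 and Adamts5 at 19. The site of Adamts1 is split over exons 3 and 4 (chr16:85799191-85799545, minus strand, intron included), and that of Adamts15 over exons 2 and 3 (chr9:30911255-30911690, minus strand). Adamts5 and Adamts1 lie on the same chromosome and strand, at chr16:85856173-85901828 and chr16:85793827-85803113. Adamts15 and Adamts8 also share a chromosome, at chr9:30899155-30922452 and chr9:30942562-30963838, on opposite strands.

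Promoter sequence was available for 21 of the 35 members in RefSeq's table (GRCm38.p6), which gave 24 promoters. The 250 bases before the start are shown for the TATA-box pair, Adamts1 (chr16:85803114-85803363, minus strand) and Adamtsl2 (chr2:27079129-27079378, plus strand), and for Mmp14 (chr14:54431348-54431597, plus strand). These 3 genes were chosen after their values were seen. Between days, Mmp14 was called in every surgery and diet group, Adamtsl2 only in the BCAS groups and Adamts1 only in the AL groups. Capitals mark TATAAA in the first pair and ATTGG, the reverse complement of CCAAT, in Mmp14.
Adamts1: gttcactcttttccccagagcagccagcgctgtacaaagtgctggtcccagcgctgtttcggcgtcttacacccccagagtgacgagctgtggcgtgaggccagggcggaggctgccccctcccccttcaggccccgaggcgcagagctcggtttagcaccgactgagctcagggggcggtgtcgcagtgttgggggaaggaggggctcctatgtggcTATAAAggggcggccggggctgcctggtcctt
Adamtsl2: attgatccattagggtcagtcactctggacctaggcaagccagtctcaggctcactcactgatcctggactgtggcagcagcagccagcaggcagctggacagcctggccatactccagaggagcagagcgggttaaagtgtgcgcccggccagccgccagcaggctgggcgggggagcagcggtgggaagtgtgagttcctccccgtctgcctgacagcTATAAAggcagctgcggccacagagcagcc
Mmp14: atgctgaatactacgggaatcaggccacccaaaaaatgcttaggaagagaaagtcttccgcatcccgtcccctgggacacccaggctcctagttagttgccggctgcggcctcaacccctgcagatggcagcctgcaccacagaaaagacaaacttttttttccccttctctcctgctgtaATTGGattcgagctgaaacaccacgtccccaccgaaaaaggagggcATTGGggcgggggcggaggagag
TATAAA began 32 bases before the start of Adamts1 and 30 before that of Adamtsl2. Both strands of 32851 promoters of the same length were searched, and 12.4% held that motif. CCAAT was in the promoters of Adam10, Adam15, Mmp14, Timp1 and Timp2, and in 33.8% of all promoters. The E-box read by clock and MYC-type factors, CACGTG, was in the promoters of Adam10 and Adam19, against 6.02% of all promoters. The AP-1 site bound by FOS and JUN proteins, searched as TGANTCA, was in the promoter of Adam19, against 6.75% of all promoters. TGACGTCA, the cAMP response element, was in no member's promoter and in 1.55% of all promoters. TTATGTAA, the D-box of clock factors, was in none and in 0.819% of all, and the heat shock element was in none and in 0.466% of all. A match describes the letters of this window and no more.

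Inhibitor transcripts were among the most abundant of the family. FPKM is a value per gene length, here all exon bases of a gene merged over its transcripts. Members can therefore be compared with each other on it only roughly. Timp2, the inhibitor that also helps MT1-MMP activate pro-MMP-2, had the highest mean level, 150 FPKM, with a range of 130 to 171 over the 78 libraries. Timp1, which is known to be induced in injury, had a mean of 35.7 FPKM and ranged from 12.4 to 218. Timp3, the matrix-bound inhibitor, had a mean of 23.9 FPKM (8.55 to 103), and Timp4, a vascular and cardiac inhibitor, 15.6 FPKM (7.87 to 22.5). Timp1 and Timp3 thus spread far more between libraries than Timp2 and Timp4.

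**Figure D1:**
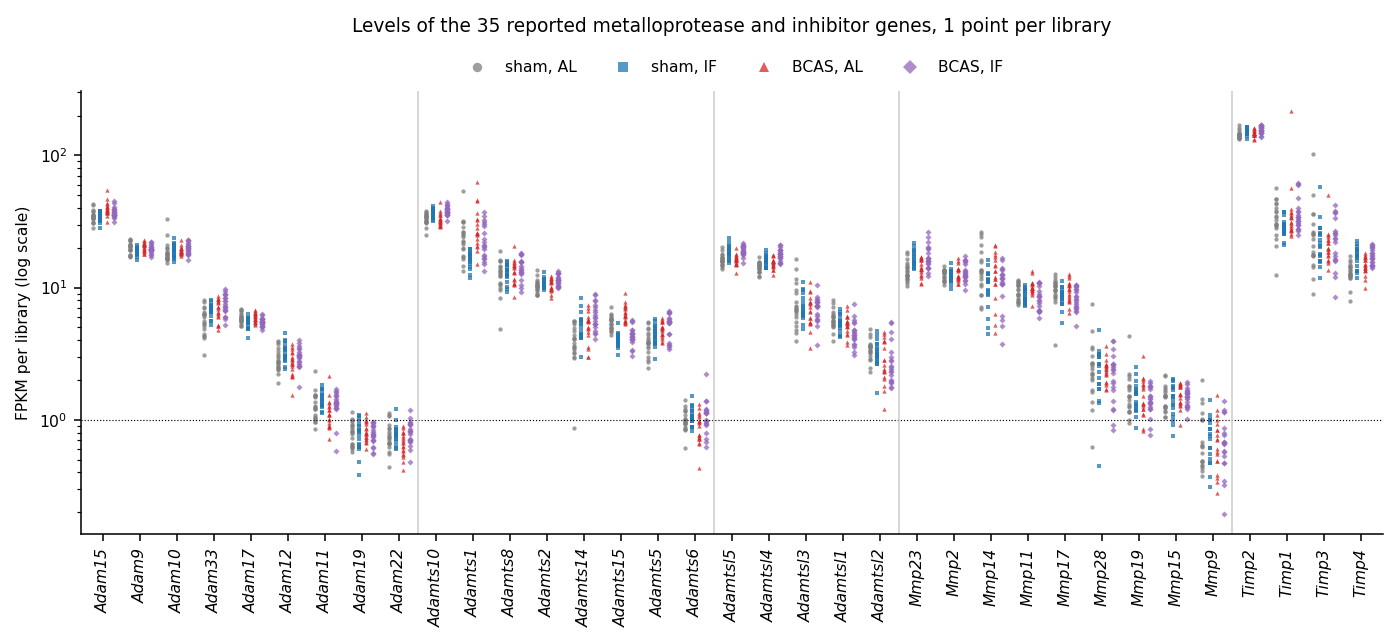
FPKM of each of the 35 reported genes on a log axis, 1 point per library, coloured by surgery and diet. Timp2 stands highest at 130 to 171 FPKM, and Mmp9 is among the lowest at 0.193 to 1.99 FPKM.

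Among the proteases, the most abundant were Adam15, an ADAM of endothelium and smooth muscle, with a mean of 36.6 FPKM, and Adamts10, a fibrillin-associated ADAMTS, with 35.3 FPKM. Adamts1, a secreted proteoglycan-cutting enzyme, followed at 23.4 FPKM (11.9 to 62.4), and Adamts8 was at 13.3 FPKM. Of the sheddases, Adam9 was at 19.7 and Adam10 at 19.2 FPKM. The most abundant ADAMTS-like genes, Adamtsl5 and Adamtsl4, had 17.6 and 15.9 FPKM, and Adamtsl3 had 7.25 FPKM. Of the MMPs, Mmp23 (15.4 FPKM), the gelatinase Mmp2 (12.8 FPKM) and the membrane-bound activator Mmp14 (12.2 FPKM) led. Mmp2 was among the steadiest members, at 9.66 to 17.2 FPKM. Mmp9, the other gelatinase, had a mean of 0.739 FPKM, which rested on 14 to 122 fragments per library, against 530 to 1733 for Adamts15 and 7928 to 16722 for Timp2. Values of Mmp9 and of other members near 1 FPKM therefore carry more counting error.

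The summed fragments ranged from 14601572 to 25944175 per library. In 3 AL libraries (sham day 7 replicates 2 and 4, BCAS day 1 replicate 2) more than 0.2% of fragments were in genes shorter than 300 bases. Sham day 7 replicate 4 of the AL mice held the highest value of all 78 libraries for 9 of the 35 members and the lowest for 5. It also had the lowest mean log2(FPKM + 1) of 8 smooth muscle markers (6.36) and the highest of 10 fibroblast markers of the brain's membranes (6.43) and of 7 astrocyte markers (4.24). Where a call changed without these 3 short-gene-rich libraries, both values are given, or the changed calls are named. In whole arteries, fewer cells of a type and less RNA per cell cannot be told apart. The smooth muscle markers that define the tissue (Acta2, Myh11, Tagln and 5 more) were above 0 in every library, and their summed level was 2210 to 9050 FPKM.

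Intermittent fasting was the factor with which most members differed, and the opposing directions of Adamts15 and Timp4 in sham mice were the clearest case. In sham mice, averaged over the 5 days, the aggrecan- and versican-type proteases Adamts15 and Adamts1 and the membrane protease Mmp14 fell. Timp4, the ADAMTS-like genes Adamtsl5 and Adamtsl4, and Mmp23 rose. Of the 35 members, 8 rose and 5 fell, which is 37.1% of them. By the same rule (limma on log2(FPKM + 1), adjusted p under 0.05 over all genes) 23.7% of the 15707 genes tested were called, 11.8% higher and 11.9% lower. The members' median difference was -0.02 on the log2(FPKM + 1) scale and that of all genes 0.01. This scale understates the change of genes near 1 FPKM.

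Adamts15 was at 4.4, 5.54 and 7.08 FPKM (lowest, median, highest) in the 20 AL sham libraries and at 3.09, 4.04 and 5.36 FPKM in the 19 IF sham libraries. The ranges over all days overlapped only in part. The mean fell from 5.47 ± 0.663 (SD, n = 20) to 4.04 ± 0.478 FPKM (n = 19), a difference of -0.36 ± 0.04 (log2, SE; adjusted p = 1.64e-09, limma). Day by day, the IF libraries lay below all AL libraries at days 1, 7, 14 and 21. At day 14, for example, the AL libraries were at 5.70, 7.08, 5.67 and 5.25 FPKM and the IF libraries at 4.19, 4.04, 3.98 and 4.52 FPKM. The daily differences ran from -0.41 to -0.21 and were called at 4 of 5 days, all but day 30 (adjusted p = 0.199). The day 14 call held without any 1 library. That of day 7 was lost without AL replicate 4 (0.0513), that of day 1 without AL replicate 1 or IF replicate 3 or 4 (up to 0.16), and that of day 21 without any 1 of 6 of the 8 libraries (up to 0.182).

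Adamts1, which cuts versican and aggrecan and restrains angiogenesis, was at 13.3, 23.5 and 53.4 FPKM in AL sham libraries and at 11.9, 16.5 and 19.6 FPKM in IF sham libraries. The AL libraries spread upwards, while the IF libraries stayed in a narrow band. The difference was -0.50 ± 0.10 (adjusted p = 0.000112, limma). At day 1 the difference was -0.02 ± 0.22, and at day 30 it was -0.97 ± 0.22 (adjusted p = 0.00341). At day 30 the AL libraries were at 53.4, 28.6, 26.3 and 31.8 FPKM and the IF libraries at 16.8, 18.2, 16.5 and 15.2 FPKM, with no overlap. Without AL replicate 1 of that day the adjusted p was 0.0576. The mean log2(FPKM + 1) of 12 early-response genes was 4.092, 3.416, 3.231 and 3.658 in these AL libraries. In these IF libraries it was 3.343, 2.875, 3.038 and 2.939, and its part in the Adamts1 difference was not tested. The fall at day 7 (-0.75, adjusted p = 0.0355) was lost without AL replicate 2 or 4 or IF replicate 2 or 3, with an adjusted p of up to 0.204.

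Of the inhibitors, Timp4 was at 7.87, 12.8 and 17.2 FPKM in AL sham libraries and at 11.8, 17.4 and 22.5 FPKM in IF sham libraries. The upper part of the IF range lay above every AL library. Timp4 rose by 0.36 ± 0.07 (adjusted p = 2.02e-05, limma), from 13.1 ± 2.16 to 17.2 ± 2.97 FPKM. At day 7 its rise of 0.55 was called (adjusted p = 0.0182), but not without AL replicate 4 or IF replicate 2 or 3 (adjusted p up to 0.147). Timp2 rose by 0.08 ± 0.03 (adjusted p = 0.0154), which voom on the recovered fragments did not call (0.101). Timp3 (-0.08) did not pass the test, nor did Timp1 (-0.19, adjusted p = 0.222), which was called without the short-gene-rich libraries (-0.30, adjusted p = 0.0287).

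Mmp14 had 6.86, 13.2 and 26.5 FPKM in AL sham libraries and 4.44, 11 and 16.3 FPKM in IF sham libraries. Its difference was -0.39 ± 0.09 (adjusted p = 0.000796), from 14.5 ± 5.87 to 10.3 ± 3.15 FPKM. Mmp23, a small membrane-linked MMP, was at 10.2, 12.8 and 18.5 FPKM against 13.9, 16.2 and 21.7 FPKM and rose by 0.30 ± 0.07 (adjusted p = 0.000811). Mmp2 (-0.03 ± 0.05, adjusted p = 0.637) and Mmp9 (0.00, adjusted p = 0.995) did not pass. Of the fibrillin-associated members, Adamtsl5 rose by 0.18 ± 0.04, Adamtsl4 by 0.16 ± 0.04 and Adamts10 by 0.13 ± 0.04 (adjusted p = 0.000534, 0.000796 and 0.0162, limma). Adamtsl2, which binds microfibrils, was not called, with daily differences of -0.22 to 0.05. Voom did not call Adamts10 (0.064). Adamts14, a procollagen N-propeptidase, rose by 0.31 ± 0.09 (adjusted p = 0.00577).

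Among the ADAMs, Adam33, a smooth muscle and fibroblast ADAM, rose by 0.22 ± 0.06 (adjusted p = 0.00346, limma). The main TNF sheddase Adam17 fell by 0.10 on the log2 scale (adjusted p = 0.0138), and Adam9 fell by 0.09 (adjusted p = 0.0297). The Adam9 call was lost without any 1 of 7 libraries, with an adjusted p of up to 0.0776. Adam10, the other main sheddase, differed by 0.04 and did not pass. By family, 2 ADAMTS genes rose and 2 fell, 2 ADAMTS-like genes rose, and 2 of 4 inhibitors rose. Adamts5, the main aggrecanase of cartilage, differed by 0.16 ± 0.06 and did not pass (adjusted p = 0.0681), though leaving out any 1 of 6 libraries brought it under 0.05, to 0.0179 at the lowest.

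**Figure D2:**
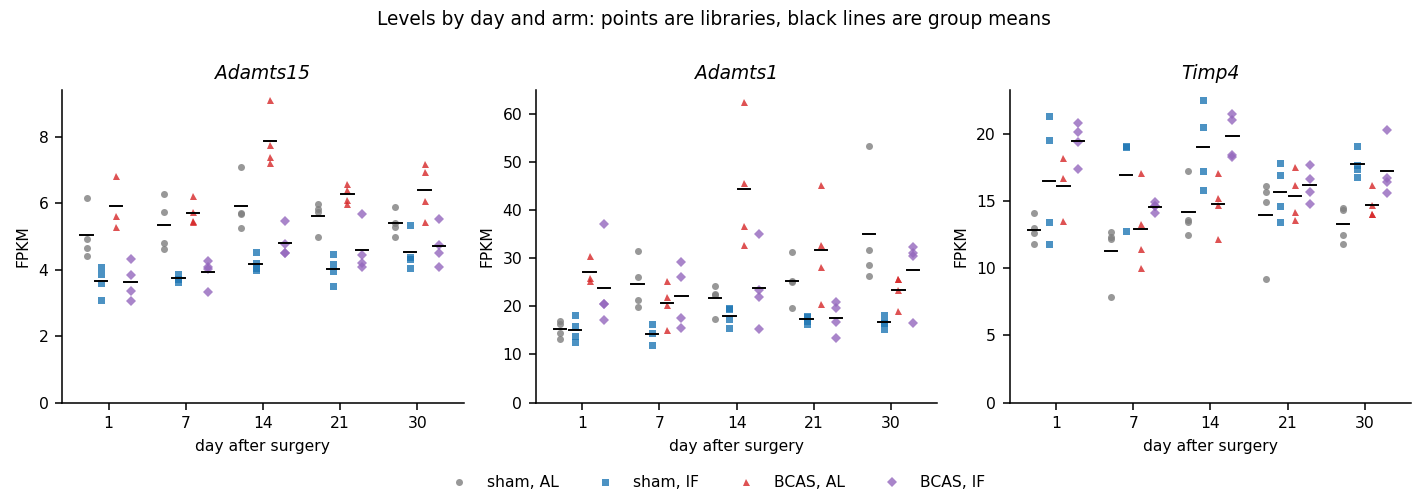
FPKM by day after surgery for Adamts15, Adamts1 and Timp4, which were called for fasting in both surgery groups, 1 point per library, coloured by surgery and diet. Adamts15 in IF libraries lies below AL libraries on nearly all days in both surgery groups, with AL sham at 4.4 to 7.08 FPKM and IF sham at 3.09 to 5.36 FPKM.

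After BCAS, Adamts15 fell again with fasting, Adamts1 fell, and Mmp11 and Adamtsl1 fell, while Adamtsl4, Adamtsl5, Adamts10, Mmp23, Timp4 and Timp2 rose. Of the 35 members, 11 rose and 7 fell, 51.4% against 23.1% of all genes tested (11.2% higher and 11.9% lower). Voom called 17. The members' median difference was 0.04 and that of all genes 0.00. By family, 4 ADAMTS genes rose and 2 fell, 2 ADAMTS-like genes rose and 1 fell, 1 MMP rose and 2 fell, and 2 of 4 inhibitors rose.

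Adamts15 was at 5.3, 6.21 and 9.1 FPKM in AL libraries with BCAS and at 3.05, 4.29 and 5.68 FPKM in IF libraries with BCAS. Most IF libraries lay below the whole AL range. The mean fell from 6.46 ± 0.978 (n = 19) to 4.34 ± 0.695 FPKM (n = 20), a difference of -0.48 ± 0.04 (adjusted p = 1.2e-13, limma). It was called on each of the 5 days. The largest daily difference was at day 14, -0.61 ± 0.09 (adjusted p = 8.46e-06), where AL libraries were at 9.10, 7.76, 7.22 and 7.39 FPKM and IF libraries at 5.48, 4.49, 4.77 and 4.51 FPKM. Leaving out any 1 library moved the adjusted p of the mean between 2.06e-14 and 1.38e-12. The calls of days 1, 7 and 14 held without any 1 library, that of day 21 was lost without any 1 of 6 of the 8 libraries (up to 0.144), and that of day 30 without AL replicate 1 or 4 or IF replicate 3 or 4 (up to 0.129).

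Adamts1 was at 15, 25.7 and 62.4 FPKM in AL libraries with BCAS and at 13.4, 20.7 and 37.1 FPKM in IF libraries with BCAS. The groups overlapped widely, and the difference was -0.33 ± 0.10 (adjusted p = 0.0114, limma). At day 14 it was -0.88 ± 0.22 (adjusted p = 0.00787), with AL libraries at 45.6, 36.7, 62.4 and 32.8 FPKM and IF libraries at 15.2, 22.0, 23.3 and 35 FPKM. The highest IF library lay within the AL range, and the call was lost without AL replicate 3 or IF replicate 1, with an adjusted p of up to 0.0662. The mean log2(FPKM + 1) of 12 early-response genes was 3.776, 3.255, 4.114 and 3.5 in these AL libraries. In these IF libraries it was 3.005, 3.151, 2.887 and 3.522, and its part in the Adamts1 difference was not tested.

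Timp4 was at 10, 14.7 and 18.2 FPKM against 14.1, 17 and 21.5 FPKM, a rise of 0.23 ± 0.07 (adjusted p = 0.00729, limma). Timp2 rose by 0.09 (adjusted p = 0.00752). Adamts10 rose by 0.21 (adjusted p = 3.94e-05), from a median of 32 to 37.9 FPKM, and Adamtsl4 by 0.20 (adjusted p = 3.1e-05), from a median of 15.6 to 17.9 FPKM. Adamtsl5 rose by 0.22 (adjusted p = 3.25e-05), and Mmp23 by 0.25 (adjusted p = 0.00458). These 6 members rose in sham mice too. Mmp11, stromelysin-3, was at 7.23, 9.93 and 13.4 FPKM in AL and 5.85, 8.21 and 11.1 FPKM in IF libraries, and its difference was -0.26 ± 0.06 (adjusted p = 0.000685). Adamtsl1 differed by -0.19 ± 0.05 (adjusted p = 0.00257).

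Further members were called after BCAS. Adamts2, a procollagen N-propeptidase, rose by 0.13 (adjusted p = 0.00793), Adam22, a synaptic receptor without protease activity, by 0.12 (adjusted p = 0.0177), and Adam17 fell by 0.10 (adjusted p = 0.0165). Adamts14 (0.24), Adamts6 (0.13), Adam11 (0.14), Mmp17 (-0.20) and Adam15 (-0.10) were called at adjusted p between 0.027 and 0.0468. Leaving out any 1 of 13 of 39 libraries ended the call of Adamts14, 20 that of Adamts6, 20 that of Mmp17, 26 that of Adam15 and 5 that of Adam11, with adjusted p of up to 0.0867, 0.107, 0.0784, 0.144 and 0.0595. Mmp14 (-0.23 ± 0.09, adjusted p = 0.0604) and Adam33 (0.13, adjusted p = 0.11) did not pass after BCAS, nor did Mmp2 (0.04), Mmp9 (-0.01), Adamts5 (0.07), Timp1 (-0.04) and Timp3 (0.11).

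The fasting comparisons in sham and BCAS mice share no libraries. Adam17, Adamts1, Adamts10, Adamts14, Adamts15, Adamtsl4, Adamtsl5, Mmp23, Timp2 and Timp4 were called in both, and all 10 moved the same way. They were 76.9% of the 13 members called in sham mice and 55.6% of the 18 called after BCAS. Over all genes, the 2405 called in both were 64.7% of the calls in sham mice and 66.4% of those after BCAS, and 2404 of them moved the same way. No member's fasting difference was shown to depend on surgery. limma called 0 of 35 members for the interaction, 0 had an unadjusted p under 0.05 (4% of all genes), voom called 0, and 0.0127% of all genes were called. The interaction of smallest p in each family was that of Adamts15 (-0.12 ± 0.06), Adam22 (0.10 ± 0.06), Mmp11 (-0.14 ± 0.08), Timp4 (-0.14 ± 0.09) and Adamtsl1 (-0.10 ± 0.07), each with an adjusted p of 0.999.

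**Figure D3:**
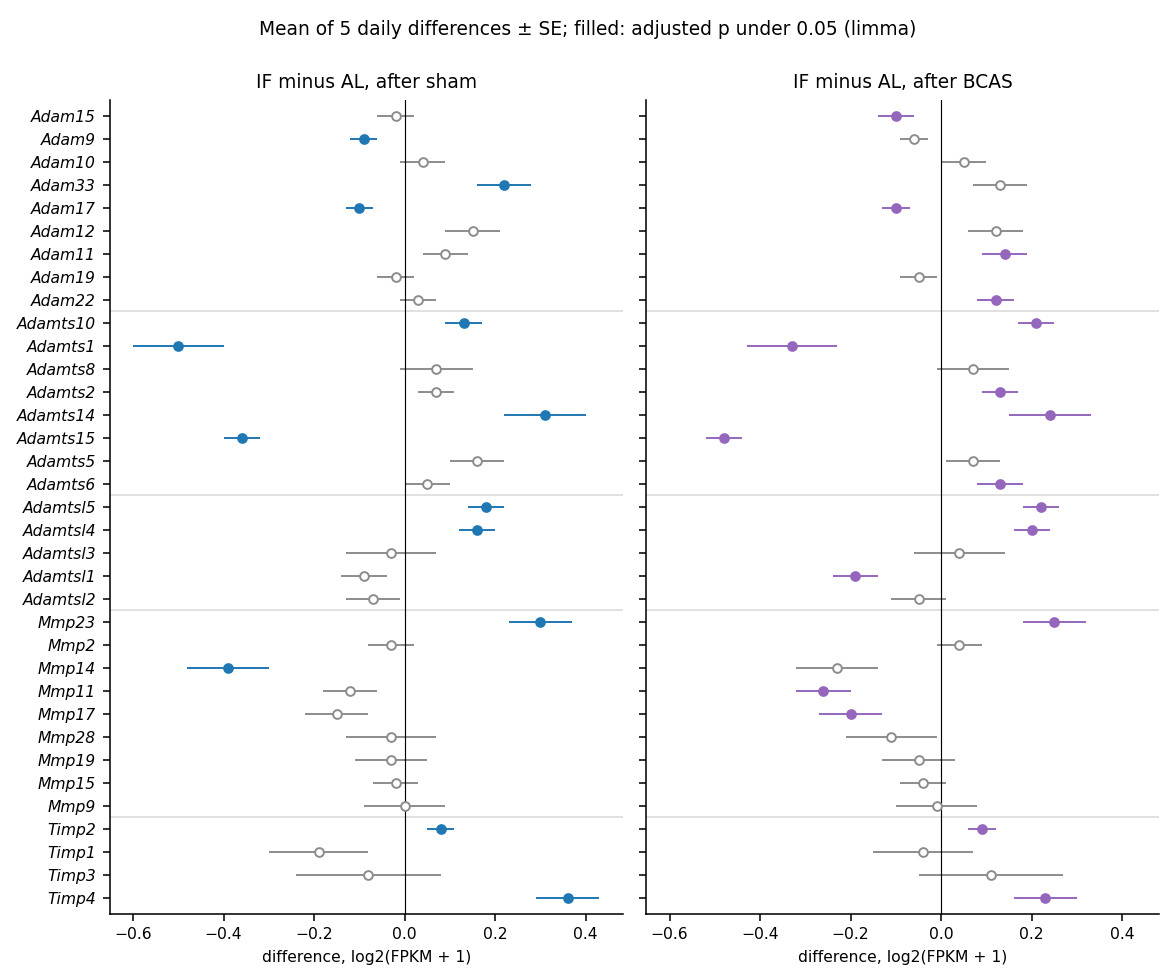
Fasting minus ad libitum difference of each reported member on the log2(FPKM + 1) scale in sham mice (left) and after BCAS (right), with bars for the SE and filled points for adjusted p under 0.05. Adamts15 is lowest after BCAS at -0.48, and Timp4 is high in both.

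The single-day fasting differences gave few calls. In sham mice 1, 4, 2, 1 and 2 members were called at days 1, 7, 14, 21 and 30, against 3.67%, 9.05%, 4.39%, 0.382% and 4.82% of all genes. Besides Adamts15, Adamts1 and Timp4 these were Adamts8 at day 7 (0.62, adjusted p = 0.0221), Adam33 at day 14 (0.41, adjusted p = 0.0471) and Adamtsl5 at day 30 (0.31, adjusted p = 0.0241). Each was lost when 1 of several libraries of its day was left out: AL replicate 4 or IF replicate 2 or 3 for Adamts8 (up to 0.179), any of 7 of the 8 for Adam33 (up to 0.228), and AL replicate 1 or 2 or IF replicate 1 for Adamtsl5 (up to 0.152). All 4 calls at day 7 were lost without the 3 libraries rich in short genes. The mean over days then had 17 calls in place of 13: Adam9 was lost (0.0858), and Timp1 (-0.30), Mmp17 (-0.21), Adam12 (0.17), Adam10 (0.11) and Adamts2 (0.10) were gained, at adjusted p of 0.0149 to 0.039. Single days gained Adamts14 and Mmp28 at day 1, Adamtsl5 at day 14 and Mmp14 at day 21. After BCAS 5, 6, 4, 1 and 1 members were called, against 4.37%, 2.25%, 5.67%, 0.802% and 1.35% of all genes. Beside Adamts15, Adamts10 (0.39, adjusted p = 0.00503) and Adamtsl4 (0.35, adjusted p = 0.0082) at day 7 stayed called without any 1 of the 8 libraries. Day 1 also had Adam15 (-0.30), Adamts2 (0.29), Adam12 (0.47) and Adam11 (0.41). Day 7 also had Adamtsl5 (0.32), Mmp11 (-0.47) and Adam11 (0.37), and day 14 had Adamtsl4 (0.30) and Adamts6 (0.35). Each of these was lost without any 1 of 3 or more of the 7 or 8 libraries of its day, with adjusted p of up to 0.448 for Adam15 at day 1 and up to 0.391 for Adam12. Without the short-gene-rich libraries, 1 member was called at day 1, Adamts15, and Adamts14 was gained at day 7 (0.65, adjusted p = 0.0105). In the mean over days after BCAS, Adam15 was then lost (0.068) and Mmp14 gained (-0.27, adjusted p = 0.0196).

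Genes of other lists were also called for fasting in the same libraries, where 23.7% of all genes were called in sham mice and 23.1% after BCAS. All 11 heat shock genes fell in both surgery groups, with summed levels of 1250 to 3240 FPKM in AL sham, 1200 to 2630 in IF sham, 1590 to 3210 in AL BCAS and 1090 to 2310 in IF BCAS libraries. Of 16 clock genes, 11 rose and 4 fell in sham mice and 12 rose and 4 fell after BCAS, with summed levels of 120 to 215, 191 to 317, 117 to 170 and 167 to 294 FPKM in the same order. Of 10 macrophage and microglia markers, C1qc, Tmem119, Cd163 and P2ry12 rose in sham mice and Cd163 and P2ry12 after BCAS (summed levels 460 to 761, 527 to 763, 508 to 716 and 475 to 797 FPKM). That is 40% and 20% of the macrophage markers. Of 10 fibroblast markers 2 rose and 1 fell in sham mice and 2 rose and 2 fell after BCAS (summed levels 867 to 1220, 893 to 1200, 795 to 1200 and 839 to 1130 FPKM). Of 12 early-response genes 1 rose and 3 fell in sham mice and 2 rose and 2 fell after BCAS (121 to 321, 123 to 194, 134 to 350 and 103 to 394 FPKM). Of 8 pericyte markers Vtn and Kcnj8 rose in sham mice (1610 to 2010 against 1800 to 2280 FPKM). No gene of these 6 lists was at 0 in any library. Of 6 choroid plexus markers, 3 were tested: Ttr rose and Kl fell in sham mice and Kl fell after BCAS (25.5 to 44.1, 24.5 to 66.5, 27.2 to 49.7 and 24.2 to 46.2 FPKM), and Folr1 and Otx2 were at 0 in at least 1 library. limma called 0 of 8 smooth muscle markers for fasting in either surgery group, with 1 at an unadjusted p under 0.05 in sham mice and 0 after BCAS, and voom called 0 in both. Kdr, of 10 endothelial markers, fell after BCAS, and Gja1, of 7 astrocyte markers, fell in both surgery groups. Cldn11, of 7 oligodendrocyte markers tested, rose after BCAS, and Camp, of 8 neutrophil markers tested, rose in sham mice. Of 5 red blood cell genes limma and voom called 0, though all 5 had an unadjusted p under 0.05 after BCAS (median difference -0.88). Their summed level had medians of 200 FPKM in AL and 86 FPKM in IF BCAS libraries, with overlapping ranges. The part of these lists in the members' differences was not tested.

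BCAS changed few members. In AL mice, averaged over days, Adam15, Adamts15, Adamts5 and Adam33 rose and none fell, 11.4% of the members against 0.987% of all genes tested (0.821% higher and 0.166% lower). Voom called 5, and 12 members had an unadjusted p under 0.05, against 11.7% of all genes. Neither gelatinase passed: Mmp2 differed by 0.02 (adjusted p = 0.886) and Mmp9 by -0.04 (adjusted p = 0.884). The AL sham libraries of this comparison are also those of the fasting comparison in sham mice, and the AL BCAS libraries those of the fasting comparison after BCAS.

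Adam15 was at 28.2, 34.8 and 42.9 FPKM in AL sham and at 31.5, 38.4 and 54.5 FPKM in AL BCAS libraries. The groups overlapped over most of their range, and the mean rose from 35 ± 3.6 to 39.8 ± 4.93 FPKM, by 0.19 ± 0.04 (adjusted p = 0.0028, limma). Adamts15 rose by 0.20 ± 0.04 (adjusted p = 0.00789), from 5.47 ± 0.663 to 6.46 ± 0.978 FPKM. Neither call was lost without any 1 of 39 libraries. Some 20.6% of the exon bases of Adam15 overlap a gene on the opposite strand, 4731419I09Rik, and whether fragments were counted by strand is not given in the sources used here. Adamts8, Adam17, Adam19, Mmp11, Mmp19, Mmp28, Timp3 and Timp4 also overlap opposite-strand exons, over 1.53% (Timp4) to 22.3% (Mmp19) of their bases.

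Adamts5 was at 2.48, 3.84 and 5.48 FPKM in AL sham and 3.81, 4.9 and 5.89 FPKM in AL BCAS libraries. The lowest AL sham libraries lay below every BCAS library, and the difference was 0.26 ± 0.06 (adjusted p = 0.0241, limma). It was lost without AL sham day 14 replicate 4, AL sham day 21 replicate 4 or AL BCAS day 1 replicate 2, with an adjusted p of up to 0.0532, and without a filter on low values, with a brain tissue covariate or in a fit of the compared groups alone (up to 0.0602). Adam33 was at 3.1, 5.79 and 8.09 FPKM against 4.78, 6.87 and 8.65 FPKM and rose by 0.23 ± 0.06 (adjusted p = 0.0284). Its call was lost without any 1 of 6 libraries: sham day 1 replicate 2, day 14 replicate 1, day 21 replicate 4 or day 30 replicate 2, or BCAS day 1 replicate 3 or day 21 replicate 4 (adjusted p up to 0.0946), and under the same 3 settings as that of Adamts5 (up to 0.149). In the families without a call, the members of smallest p were Adamtsl2 (-0.20, adjusted p = 0.0945, or 0.0454 without BCAS day 21 replicate 1), Timp4 (0.17, adjusted p = 0.272) and Mmp11 (0.10, adjusted p = 0.52). Adamts14 differed by 0.31 ± 0.09 and did not pass (adjusted p = 0.0595).

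In IF mice, BCAS raised Adamts1 and lowered Adamtsl1, 2 of 35 members against 0.758% of all genes. Adamts1 was at 11.9, 16.5 and 19.6 FPKM in IF sham and at 13.4, 20.7 and 37.1 FPKM in IF BCAS libraries. The upper libraries of the BCAS group lay above the whole sham range, and the difference was 0.43 ± 0.10 (adjusted p = 0.019, limma; 16.4 ± 2.12 against 23 ± 7.2 FPKM). Adamtsl1 was at 4.21, 5.35 and 6.93 FPKM against 3.1, 4.36 and 7.53 FPKM, a difference of -0.21 ± 0.05 (adjusted p = 0.0199). Both calls held without any 1 of 39 libraries. Adam15 (0.11, adjusted p = 0.247), Timp1 (0.33, adjusted p = 0.202) and Mmp2 (0.09, adjusted p = 0.518) had the smallest p of their families without passing. A fit of the compared groups alone called Timp1 with the same difference (adjusted p = 0.00249). In AL mice the difference of Adamts1 was 0.25 (adjusted p = 0.271), and since the interaction did not pass, the diets were not shown to differ.

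**Figure D4:**
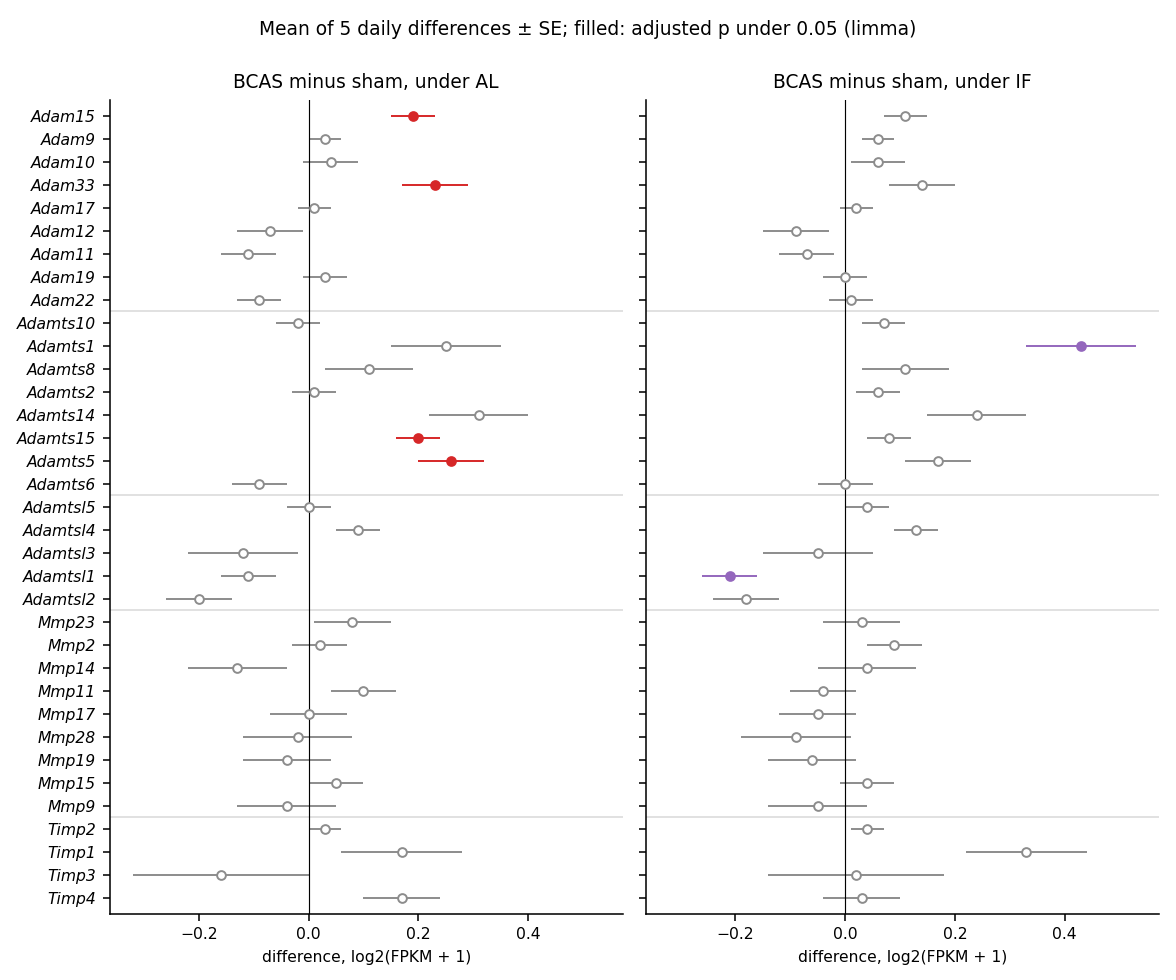
BCAS minus sham difference of each reported member on the log2(FPKM + 1) scale in AL mice (left) and IF mice (right), with bars for the SE and filled points for adjusted p under 0.05. Filled points are Adam15, Adamts15, Adamts5 and Adam33 in AL mice, and Adamts1 and Adamtsl1 in IF mice.

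Some endothelial markers were called with BCAS in the same libraries. Of 10 markers, Cldn5, Pecam1 and Esam rose in AL mice and Pecam1 and Vwf in IF mice. That is 30% and 20% of the list, against 0.987% and 0.758% of all genes. None of the 10 was at 0 in any library. The summed level of the 10 markers was 530 to 814 FPKM in AL sham, 680 to 1090 in AL BCAS, 588 to 870 in IF sham and 593 to 966 in IF BCAS libraries. Of 8 pericyte markers, Notch3 rose in AL mice and 0 were called in IF mice. The part of these markers in the rise of Adam15 and the other members was not tested. For smooth muscle, limma called 0 of 8 markers with BCAS in either diet, 2 in AL mice and 0 in IF mice had an unadjusted p under 0.05, and voom called 0 in both.

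On single days, BCAS changed 1 member at day 7 and 2 at day 14 in AL mice, where 2.63% and 0.337% of all genes were called. Adamts1 at day 14 stood out, with AL sham libraries at 24.3, 22.6, 17.4 and 22.3 FPKM and AL BCAS libraries at 45.6, 36.7, 62.4 and 32.8 FPKM. The groups did not overlap, and the difference was 0.97 ± 0.22 (1.96-fold on this scale, adjusted p = 0.019, limma). The call was lost without sham replicate 1 or 3 or BCAS replicate 1 or 3 of that day, with an adjusted p of up to 0.165. The mean log2(FPKM + 1) of 12 early-response genes was 3.186, 3.285, 2.79 and 3.262 in these sham libraries. In these BCAS libraries it was 3.776, 3.255, 4.114 and 3.5, and its part in the Adamts1 difference was not tested. Adam33 also rose at day 14 (0.53, adjusted p = 0.0331), a call lost without any 1 of 7 of the 8 libraries (up to 0.308). Adam11 fell at day 7 (-0.43 ± 0.10, adjusted p = 0.0146, limma). Its call was lost without AL sham replicate 4 or AL BCAS replicate 2 or 4 (up to 0.061) and without the short-gene-rich libraries (0.0553). It was also lost with a brain tissue covariate (neuron and oligodendrocyte markers) and in a fit of the compared groups alone (up to 0.599).

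At days 1, 21 and 30 limma called 0 members in AL mice, with 7, 6 and 5 at an unadjusted p under 0.05 and 0 by voom on each. The shares of all genes called were 0.376%, 0% and 0.357%, and 11.6%, 6.54% and 9.74% of all genes had an unadjusted p under 0.05. In IF mice limma called 0 members on each of the 5 days, with 4, 7, 2, 4 and 10 at an unadjusted p under 0.05 from day 1 to day 30, and voom called 1 at day 30 and 0 on the other days. Of all genes, 0.00637%, 0.153%, 0%, 0% and 0.0891% were called on these days, and 3.76%, 7.53%, 3.12%, 5.72% and 11.3% had an unadjusted p under 0.05. The BCAS difference of Adamts1 in AL mice itself varied with day (adjusted p = 0.00599, limma F test). It was 0.80 at day 1, -0.25 at day 7, 0.97 at day 14, 0.27 at day 21 and -0.51 at day 30. Adam12, an ADAM of mesenchymal cells, also passed (adjusted p = 0.0498, with daily differences of -0.41, 0.01, -0.35, 0.17 and 0.25), which was lost without any 1 of 29 of 39 libraries (up to 0.12) and without the short-gene-rich libraries (0.0526). These 2 were among the 1.97% of all genes so called. In IF mice limma called 0 of 35 by day and 0% of all genes. There 4 members and 5.06% of all genes had an unadjusted p under 0.05, and voom called 0.

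Members also differed between days within each surgery and diet group, and Mmp14 did so in all 4. The calls were 8 of 35 in AL sham mice (17.3% of all genes), 1 in IF sham (1.88%), 7 in AL BCAS (4.48%) and 7 in IF BCAS mice (5.23%). Mmp14, the membrane-type MMP that activates pro-MMP-2, was lowest at day 14 everywhere. Its day 14 libraries were at 6.86 to 8.79 FPKM in AL sham mice, against 10.2 to 26.5 FPKM on the other days. In IF sham mice they were at 4.44 to 7.19 against 8.79 to 16.3 FPKM. The values were 4.51 to 8.32 against 10.6 to 20.9 FPKM in AL BCAS mice and 3.76 to 6.09 against 8.6 to 16.8 FPKM in IF BCAS mice. Day 14 overlapped with no other day within any group, and the limma F tests gave adjusted p of 0.00122, 0.00179, 3.53e-05 and 0.0001 in the same order. Each of these calls held without any 1 library. In a fit of the compared groups alone that of AL sham mice was lost (0.159), as were all 8 calls over days in that group: limma then called 0 of 34 members, with 8 at an unadjusted p under 0.05, where voom on all groups called 8. Day of collection and whatever else differed between collection days cannot be told apart.

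Adamtsl2, a microfibril-binding protein that limits TGF-beta signalling, was high at day 1 after BCAS. In IF BCAS mice its day 1 libraries were at 4.05, 5.44, 4.62 and 5.48 FPKM, above all libraries of the later days (1.74 to 3.24 FPKM; adjusted p = 1.19e-05, limma F test). In AL BCAS mice the medians were 4.46 FPKM at day 1, 3.92 at day 7, and 2.22, 2.23 and 2.31 at days 14, 21 and 30 (adjusted p = 3.53e-05). In sham mice the medians at days 1 and 30 were 3.62 and 3.63 FPKM under AL and 3.93 and 2.99 FPKM under IF, and Adamtsl2 was not called over days there. Over all groups, day 1 libraries were at 3.6 to 5.48 FPKM and those of other days at 1.21 to 4.43 FPKM. The BCAS difference of Adamtsl2 was not shown to vary with day (limma F test, adjusted p = 0.0974 in AL and 0.915 in IF mice). Its daily values ran from -0.43 to 0.13 in AL and from -0.41 to 0.22 in IF mice.

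**Figure D5:**
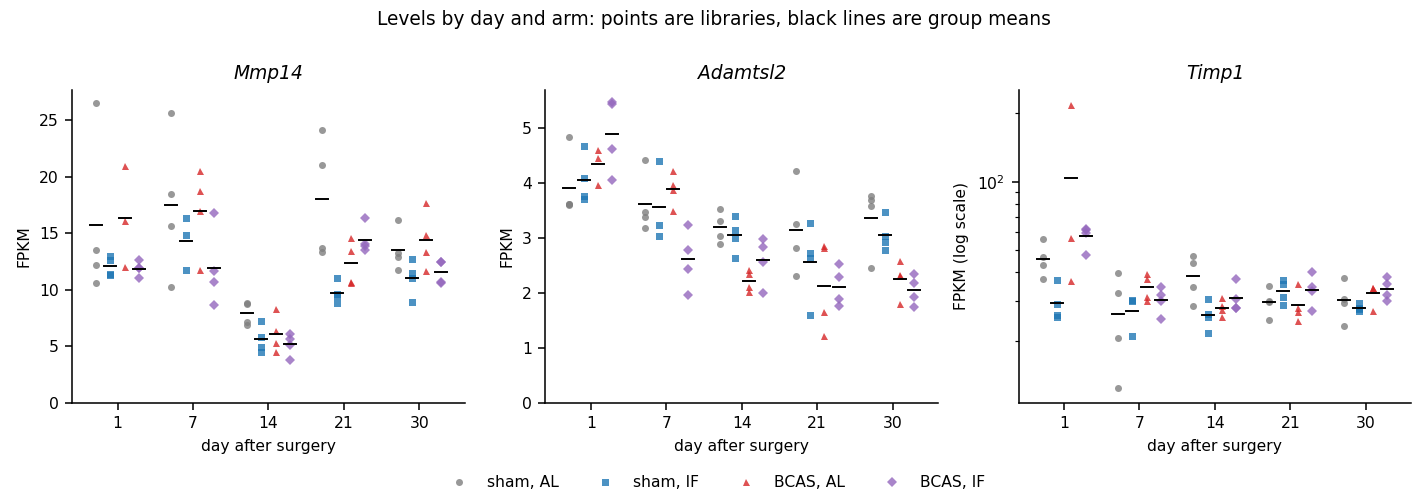
FPKM by day after surgery for Mmp14, Adamtsl2 and Timp1, 1 point per library, coloured by surgery and diet. Mmp14 dips at day 14 in all 4 groups (3.76 to 8.79 FPKM), and Timp1 has a single day 1 library at 218 FPKM.

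Timp1 was highest at day 1 after BCAS. In IF BCAS mice the day 1 libraries were at 47.9, 62.0, 59.8 and 61.2 FPKM, above the 25.1 to 40.1 FPKM of the later days, and the F test over days gave an adjusted p of 0.0463, lost without any 1 of 16 of 20 libraries (up to 0.148). In AL BCAS mice the day 1 libraries were at 218, 56.9 and 36.7 FPKM, so they differed widely among themselves. The adjusted p over days of 0.00107 became 0.206 without the library at 218 FPKM, replicate 1. In AL sham mice the day 1 libraries were at 56.3, 37.6, 43.1 and 46.7 FPKM (adjusted p over days 0.0441, lost without any 1 of 10 of 20 libraries, up to 0.189, and without the short-gene-rich libraries, 0.226). Against sham at day 1, Timp1 differed by 0.75 ± 0.27 in AL (adjusted p = 0.206) and 0.96 ± 0.25 in IF mice (adjusted p = 0.404), and neither passed.

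At day 7 several members stood apart. In AL sham mice Adamts8 was at 4.83 to 9.89 FPKM at day 7, below the 10.4 to 19 FPKM of the other days (adjusted p = 0.00277, limma F test; 0.0811 without replicate 4 and 0.244 without the short-gene-rich libraries). Adam33 in AL BCAS mice was at 4.78 to 5.17 against 6.04 to 8.65 FPKM, and Adamtsl1 at 3.66 to 4.47 against 4.7 to 7.2 FPKM, both without overlap. These calls (adjusted p = 0.0217 and 0.0311) were lost without any 1 of 4 and of 3 day 7 libraries (up to 0.111 and 0.199). Smooth muscle markers moved with that day: their summed level had a median of 5440 FPKM at day 7 (2210 to 6020) and medians of 6130 to 6800 on the other days, and 5 of 15 day 7 libraries lay below all others. Fibroblast markers went the other way, with a median of 1080 FPKM at day 7 (920 to 1220). Their medians were 928 to 971 on the other days, and 3 of 15 day 7 libraries lay above all others. The part of either list in the day 7 values was not tested.

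The other calls over days had less separation. Adamts15 in AL BCAS mice was at 7.22 to 9.1 FPKM at day 14 against 5.3 to 7.17 FPKM on the other days (adjusted p = 0.0289, limma F test), a call lost without day 7 replicate 1 or 2 or day 14 replicate 1 or 2 (up to 0.208). In IF BCAS mice Adamts15 (0.0463), Adamts5 (0.0293), Adam33 (0.0426) and Adamtsl1 (0.00204) were also called. The call of Adamtsl1 held without any 1 library, and those of Adamts15, Adamts5 and Adam33 were lost without any 1 of 12, 6 and 13 of 20 libraries (up to 0.161, 0.0822 and 0.115). Adamts1 was called in AL sham mice (0.00588) and in AL BCAS mice (0.00871, or 0.0721 without day 14 replicate 3). The remaining calls in AL sham mice were Mmp28 (0.0126), Adam9 (0.0131), Adam10 (0.0259) and Adam11 (0.0272). Those of Mmp28 and Adam10 were lost without day 7 replicate 4 (up to 0.112 and 0.377), that of Adam10 also without replicate 2, and that of Adam11 without day 7 replicate 1 or 4 or day 30 replicate 3 (up to 0.146). With the brain tissue covariate those of Adam10 and Adam11 were lost. Without the short-gene-rich libraries all 4 were lost, at adjusted p of 0.234 for Mmp28, 0.0598 for Adam9, 0.647 for Adam10 and 0.124 for Adam11. Mmp14 and Adamts1 were the calls left in that group, while Adamts14 was gained in both BCAS groups, Timp3 in IF BCAS mice and Mmp28 in IF sham mice.

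The partners of these enzymes were followed in a list of 27 activators, chaperones and other inhibitors, 20 of which passed the filter on low values. With fasting in sham mice, Plat and Plau, the plasminogen activators upstream of several MMPs, fell, and so did Tspan14, a tetraspanin that escorts ADAM10. Tspan17, another such tetraspanin, and Rhbdf1, an iRhom that escorts ADAM17, rose. Plat had means of 49.6 ± 5.46 FPKM (n = 20) in AL and 36.0 ± 3.13 FPKM (n = 19) in IF sham mice, with no overlap between the libraries (-0.45 ± 0.04, adjusted p = 1.54e-13, limma). After BCAS the means were 50.5 ± 3.99 (n = 19) and 33.2 ± 3.32 FPKM (n = 20), again with no overlap (-0.60 ± 0.04, adjusted p = 4.53e-19). Plau differed by -0.30 and -0.45, Tspan14 by -0.18 and -0.26, Tspan17 by 0.22 and 0.20, and Rhbdf1 by 0.11 and 0.11. After BCAS Rhbdf2 (-0.30) and Sdc4 (-0.12) fell too, so 2 rose and 5 fell. The partners called were thus 25% of the 20 in sham mice and 35% after BCAS, against 23.7% and 23.1% of all genes. The list's medians were 0.00 in sham and 0.01 after BCAS, against 0.01 and 0.00 for all genes. With BCAS, limma called 0 of the 20 in either diet, voom called 0, and 3 in AL and 5 in IF mice had an unadjusted p under 0.05. Reck, a membrane-anchored MMP inhibitor, was at 52.4 ± 11.2 FPKM in AL sham mice and differed by -0.01 and 0.03 with fasting.

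Of 35 known substrates, 30 passed the filter. With fasting in sham mice, Lum and Tfpi rose, and Thbs1, Hbegf, Col4a1, Col3a1, Cx3cl1 and Lamc1 fell. These were 26.7% of the 30, and those called after BCAS were 30%, against 23.7% and 23.1% of all genes. Thbs1, the matrix protein thrombospondin-1, had means of 58.6 ± 22.0 FPKM in AL and 31.3 ± 5 FPKM in IF sham mice (-0.82 ± 0.09, adjusted p = 5.56e-10, limma), and of 63.7 ± 27.2 and 34.5 ± 12.2 FPKM after BCAS (-0.84 ± 0.09, adjusted p = 1.63e-10). After BCAS, Lum, Tfpi and Col1a2 rose, and Thbs1, Hbegf, Col4a1, Cx3cl1, Il6ra and Col3a1 fell. Hbegf, a growth factor released by ADAM proteases, differed by -0.26 and -0.31. With BCAS itself, Col4a1, the basement membrane collagen, rose by 0.20 ± 0.05 in AL mice (adjusted p = 0.0133) and by 0.18 ± 0.05 in IF mice (adjusted p = 0.0262). Notch3 rose by 0.28 in AL mice, and Vwf by 0.20 in IF mice. The substrates called with BCAS were thus 6.67% of the 30 in each diet, against 0.987% of all genes in AL and 0.758% in IF mice. The list's medians lay between -0.01 and 0.03 in the 4 comparisons. Vcan, the versican transcript cut by the Adamts1 group, was at 0.939 FPKM in AL sham mice, against 23.4 FPKM for Adamts1 over all libraries, and was not called in any of the 4.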

How the data were processed

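RNA was sequenced from cerebral arteries of 78 libraries. The authors deposited 1 table of FPKM values per gene on GRCm38 coordinates, and the submitters' processing notes name DESeq 1.10.1 without its role. Fragments could be recovered as whole numbers (within 0.05) for 100% of the values checked. They served as depth (14601572 to 25944175 per library) and for limma-voom as an alternative. The divisor implied by the FPKM values, 15122625 to 26813655 per library, differed from this sum (16335256 against 14601572 in AL sham day 7 replicate 4). Voom took the sum as library size without further factors, so it changed the scaling as well as the model of the counts. The filter on low values asked for 1 FPKM or more in 3 or more libraries and left 15707 genes, whose log2(FPKM + 1) was fitted with limma 3.58.1 (trend, robust, statmod 1.5.0, R 4.3.3) to 20 group means. P-values are two-sided, Benjamini-Hochberg adjusted over all genes, with a threshold of 0.05. The script was tested on simulated data. The contrasts were BCAS against sham per diet, IF against AL per surgery, and their interaction, averaged over days and per day, and F tests across days.

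The members and gene lists were chosen with earlier results of these data known. The genes named were Adamts1, Adamts5, Adamts15, Timp4 and Mmp2, the 4 TIMPs, the 3 most abundant members of each other family, every member called, the member of smallest p per family, and every partner or substrate called. Zinc sites allow any codon 8, a pattern widened after a stricter one missed Adamts1, Adamts8 and Adamts15. Left-out libraries, other filters, pseudocounts, scalings and covariates are covered in the closing section. Replicate numbers follow accession order.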

Additional observations from a re-analysis of the deposited data

Results flagged for a closer look

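Within groups of 4 libraries, 14 of 216 member and group pairs, over 12 genes, had 1 library whose gap to the nearest other, divided by the group's range, was above 0.829. Chance gives about 1 in 20. Adamts1 was at 37.1 FPKM in IF BCAS day 1 replicate 1 (the other libraries 17.2 to 20.5) and at 16.5 in IF BCAS day 30 replicate 3 (30.5 to 32.4). The mean log2(FPKM + 1) of 12 early-response genes was 4.416 in the first library, against 3.172, 2.992 and 3.098 in its group. In the second library it was 3.1, against 3.269, 3.645 and 3.146. Adamts5 was at 4.49 FPKM in AL BCAS day 30 replicate 4 (4.98 to 5.05) and also at 4.49 in IF BCAS day 1 replicate 1 (3.58 to 3.69). It was at 3.41 FPKM in IF BCAS day 7 replicate 3 (5.43 to 5.78) and at 5.43 in IF BCAS day 30 replicate 2 (6.43 to 6.6). Timp4 was at 7.87 FPKM in AL sham day 7 replicate 4 (12.2 to 12.7), and Mmp2 at 11.9 in AL sham day 30 replicate 3 (13.3 to 13.5). Timp1 was at 27.1 FPKM in AL BCAS day 30 replicate 4 (33.6 to 34.3) and at 47.9 in IF BCAS day 1 replicate 1 (59.8 to 62). Timp3 was at 50.3 FPKM in AL sham day 21 replicate 4 (14.3 to 17.6). Adamtsl2 was at 4.84 FPKM in AL sham day 1 replicate 3 (3.6 to 3.62) and at 2.45 in AL sham day 30 replicate 1 (3.58 to 3.76). Adam15 was at 31.5 FPKM in AL BCAS day 7 replicate 4 (36.5 to 37.4).

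Under AL feeding the BCAS difference varied with the day for Adamts1 (adjusted p = 0.00599, limma F test) and for Adam12 (adjusted p = 0.0498).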

How the results depend on the processing

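No paired analysis was possible because the group labels share no replicate numbers. Over the alternative settings, 905 of 1011 values for members in a comparison kept their direction and their side of the threshold, 104 were no longer past it, 2 were newly past it and 0 reversed. With 1 library left out, 3682 of 3998 were kept, 309 were no longer past the threshold, 7 were newly past it and 0 reversed. The number of members called with BCAS in AL mice was 4 as reported and 2 without a filter on low values, with a brain tissue score as covariate, or in a fit of the compared groups alone. The calls summed over single days went from 3 to 0 (BCAS, AL) in a fit of the compared groups alone, and from 0 to 1 (BCAS, IF) under voom. For fasting they went from 10 to 6 in sham mice and from 17 to 9 after BCAS without a filter, and to 3 and 8 in a fit of the compared groups alone. The 2 members whose BCAS difference varied with day in AL mice became 1 without a filter, with median-ratio scaling, with the brain tissue covariate, without the 3 short-gene-rich libraries and in a fit of the compared groups alone. For BCAS in IF mice 2 became 3 under voom and in a fit of the compared groups alone. The calls over days in AL sham mice went from 8 to 2 without the short-gene-rich libraries and to 0 in a fit of the compared groups alone. The cause was not tested. Leaving out 1 library gave 2 to 5 calls for BCAS in AL mice (2 without sham day 21 replicate 4), 1 to 5 over its single days (1 without sham or BCAS day 14 replicate 1 or 3, 5 without sham day 14 replicate 2), 2 to 3 in IF mice and 0 over their single days. For fasting it gave 12 to 14 in sham mice, 6 to 13 over single days (6 without AL day 7 replicate 4), 14 to 19 after BCAS and 13 to 18 over single days. It gave 1 to 3 for the BCAS difference by day in AL mice, 0 in IF mice, 0 for the interaction, 18 to 27 for days within groups (23 reported) and 30 to 36 for the partner and substrate lists (33 reported). The factors of the median-ratio scaling were 0.984 to 1.01, so that setting changed the values little. Members near 1 FPKM are limited by depth.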

Other observations

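The summed level of the 4 TIMP genes was 219 ± 21.1 FPKM in AL sham libraries, 221 ± 13.4 in IF sham, 226 ± 48.6 in AL BCAS and 236 ± 22.6 in IF BCAS libraries (SD, n = 20, 19, 19 and 20). The 24 members with a zinc site summed to 250 ± 17.2, 243 ± 6.43, 266 ± 18.9 and 261 ± 14.7 FPKM in the same order. The ratio of TIMP to protease transcripts per library had medians of 0.892 (0.733 to 1.06), 0.913 (0.808 to 1.03), 0.8 (0.64 to 1.66) and 0.897 (0.782 to 1.17). Timp2 makes up most of the inhibitor sum, and the 4 ranges overlap.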
